A study of Mus musculus with 185 samples.

Results

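The dendrites of Langerhans cells (LCs), the antigen-presenting cells of the epidermis, rely in part on actin filaments. From the actin machinery, 10 genes were followed here in single LCs of embryonic and of monocytic origin. The genes were *Myo10*, *Lima1*, *Rapgef2*, *Fscn1*, *Marcks*, *Marcksl1*, *Cdc42*, *Rac1*, *Rac2* and *Coro1a*, 10 of the 45661 genes listed, and they were chosen by their role in actin protrusions and by earlier values of these same cells, namely their summed levels, shares of cells with a read and correlations. All of these are therefore given as a description, with no test. The cells came from the epidermis of bone marrow chimeras (BMC), made by giving CD45.2 wild-type bone marrow to lethally irradiated B6 Cd207DTR hosts marked by CD45.1. After engraftment the mice received a low dose of diphtheria toxin (DT), 5 ng per gram of body weight, which kills cells that express the DTR allele, and LCs were sorted 2 months later. Host LCs that had outlived the toxin were the embryo-derived LCs (eLCs) and donor LCs were the monocyte-derived LCs (moLCs), so that origin, DTR allele and survival of the toxin cannot be told apart. No mouse was named for any cell. Each origin was therefore 1 sample, and a difference between origins had no replicate check beyond the 2 plates on which both were sequenced.

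The 182 cells with at most 5% of reads on mitochondrial genes were described, with 67 moLCs and 29 eLCs on plate 1 and 36 moLCs and 50 eLCs on plate 2, or 79 eLCs in all. The highest mitochondrial share kept was 3.89% and the lowest of the 3 cells left out was 9.97%. Reads per cell ranged from 432614 to 4525429, and the median cell had reads of 4026 genes among moLCs and 4488 among eLCs. All 8 LC markers (*Cd207*, *Epcam*, *Cd74*, *H2-Ab1*, *H2-Aa*, *Cd24a*, *Itgax* and *Mfge8*) were read in both origins, with a summed level of 207790 CPM (reads per 1000000 reads) in moLCs and 187464 in eLCs. Within that sum *Cd207*, the gene of the DTR allele, stood at 26237.5 CPM in moLCs and 2159.1 CPM in eLCs. No other marker of the 8 was 2-fold apart. A single moLC of plate 1 stood apart from its label: its LC markers summed to 11202 CPM, against 56889 CPM in the next lowest moLC, it had no *Cd207* read, and its *H2-Ab1* and *Cd74* levels were the lowest of the 182 cells. Keratinocyte markers were read in 25 moLCs and 10 eLCs, summing to 26.1 and 4.86 CPM, with *Krt1*, *Krt15* and *Dsp* at 0 in both. Monocyte markers, almost solely *Lyz2*, were read in 44 moLCs and 19 eLCs and summed to 76.1 and 33.9 CPM. Markers of dermal DC1s, dendritic cells of the dermis, were read in 78 moLCs and 62 eLCs, at 166 and 198 CPM. Most of that sum was *Irf8* (111 and 99.2 CPM) and *Cadm1* (38.4 and 66.7 CPM). *Itgae* was read in 12 moLCs and 15 eLCs, *Xcr1* in 7 and 12, and *Clec9a* in 1 and 3. Some values below are also given without the cells with a keratinocyte marker read, or without the moLC of lowest LC markers. No value was computed without the cells with monocyte or dermal DC1 marker reads. The part of these markers in the differences below was not tested otherwise. The 5 fibroblast markers were at 0, and the T cell and melanocyte lists summed to at most 1.17 CPM.

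As background, a filopodium is a protrusion whose core is a bundle of actin filaments. Cdc42 and Rac1 switch on filament assembly at the membrane, fascin (*Fscn1*) ties filaments into stiff bundles, and myosin X (*Myo10*), an unconventional myosin, walks along the bundles to the tips of filopodia, carrying cargo such as integrins. LIMA1 (EPLIN) binds and stabilizes filaments, MARCKS and MARCKSL1 link actin to the plasma membrane, and coronin 1A (*Coro1a*) is the coronin of leukocytes, which binds filaments and the Arp2/3 complex. RAPGEF2 is an exchange factor that activates Rap GTPases, the switches of integrin adhesion.

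Levels of different genes were compared per kilobase of exon. *Cdc42* stood at the top, with 387 CPM per kb in moLCs and 415 in eLCs. *Marcksl1* (253 and 265 CPM per kb) and *Coro1a* (233 and 256) came next and could not be ordered, as their values over the 4 groups of origin and plate overlapped (212 to 345 and 178 to 279). *Rac1* followed with 117 and 129 CPM per kb. *Marcks* was lower, with 17.6 and 17.7 CPM per kb. *Myo10* had 5.92 CPM per kb in moLCs and 13.6 in eLCs, *Lima1* 3.72 and 0.805, and *Rapgef2* 0.892 and 0.141, and neighbours among these last 3 overlapped over the 4 groups. *Fscn1* (2.19 and 0.0671 CPM per kb) and *Rac2* (2.18 and 0) rested on 7 cells in all and are described last. The plot of single cells shows that the genes fell into 3 kinds: read in nearly every cell, read in some cells at a wide range of levels, and read in almost none.

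**Figure D1:**
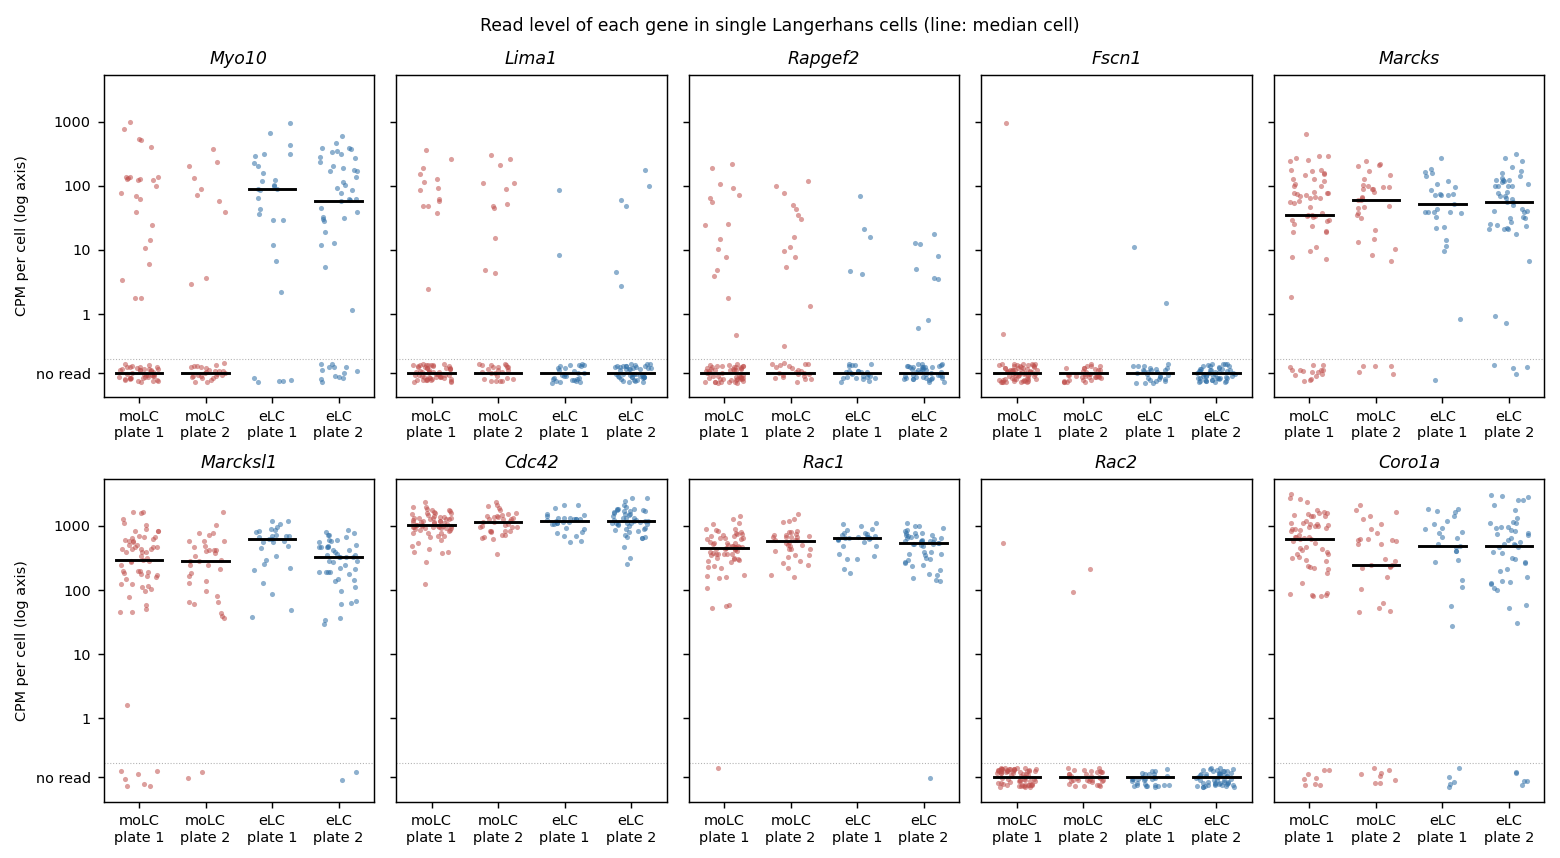
CPM of each of the 10 genes in every cell (points, log axis, cells without a read drawn on the bottom line), by origin and plate, with a line at the median cell. *Cdc42* and *Rac1* were read in nearly all cells of the 4 groups, the median cell had *Myo10* reads among eLCs and none among moLCs on both plates, and *Fscn1* and *Rac2* had reads in 4 and 3 cells.

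A gene was called different by size where 25% or more of the cells in either origin had a read and the origins were 2-fold or more apart, with 1 sign, over all cells, on plate 1 and on plate 2. Of 6522 genes read that widely, 132 (2.02%) passed, 53 of them higher in moLCs (0.813%) and 79 higher in eLCs (1.21%). Of the 10 genes, 8 were read widely enough, and *Fscn1* and *Rac2* were not. *Myo10* passed as higher in eLCs, and *Lima1* and *Rapgef2* passed as higher in moLCs. The same 3 genes were past 2-fold in the pooled cells alone, as were 373 of the 6522 (5.72%). The other 5 (*Marcks*, *Marcksl1*, *Cdc42*, *Rac1* and *Coro1a*) stayed within 2-fold in all cells and on each plate. As these genes were picked for such values, nothing is read from their count against the background. The median log2 ratio of moLCs over eLCs was −0.09 over the 8 genes and −0.10 over all 6522.

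*Myo10* (chr15:25622525-25813673 on GRCm38, the build of all coordinates here, plus strand, 46 merged exon blocks) had the widest gap of the 10 genes in the share of cells read. Reads were present in 35 moLCs (34%, exact 95% interval 24.9 to 44) and in 61 of 79 eLCs (77.2%, 66.4 to 85.9). The gap was alike on the 2 plates, with 37.3% of moLCs and 82.8% of eLCs on plate 1 and 27.8% and 74% on plate 2. The intervals of shares count cells of 1 sample per origin, so they do not measure the spread between mice. Asking for 10 reads in place of 1 gave 31.1% and 75.9%, and thinning each cell to 2052512 reads gave 34.4% and 76.1%, a gap of like width. Of the 6522 genes, 645 (9.89%) had shares 10 percentage points or more apart, with 1 sign, over all cells and on both plates, 567 of them (8.69%) read in more eLCs and 78 (1.2%) in more moLCs.

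Among the cells that had a read, *Myo10* levels were close. The median cell with a read had 99.1 CPM among moLCs and 101.7 CPM among eLCs, and the highest cells had 972 and 961 CPM. Over all cells the level per cell ran from 0 through a median of 0 to 972 CPM in moLCs, and from 0 through a median of 63.2 to 961 CPM in eLCs. The origins overlapped widely, with 22 moLCs (21.4%) above the median eLC. Summed over cells, *Myo10* stood at 59.9 CPM in moLCs (95% counting interval 59.1 to 60.8) and 138 CPM in eLCs (137 to 140). This was a log2 ratio of −1.20 (−1.23 to −1.18), or 2.30-fold higher in eLCs, with −1.07 on plate 1 and −2.02 on plate 2. The sum in moLCs rested on few cells, as 4 moLCs held more than 50% of the reads, against 10 eLCs. Leaving out the moLC with the most reads moved the log2 ratio to −1.49, and leaving out the cells with a keratinocyte marker read moved it to −1.08. The plate 1 ratio was near the limit of the size rule: it went to −0.84 without 1 eLC, and it also fell below 2-fold with TMM factors, so that *Myo10* then no longer passed.

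**Figure D2:**
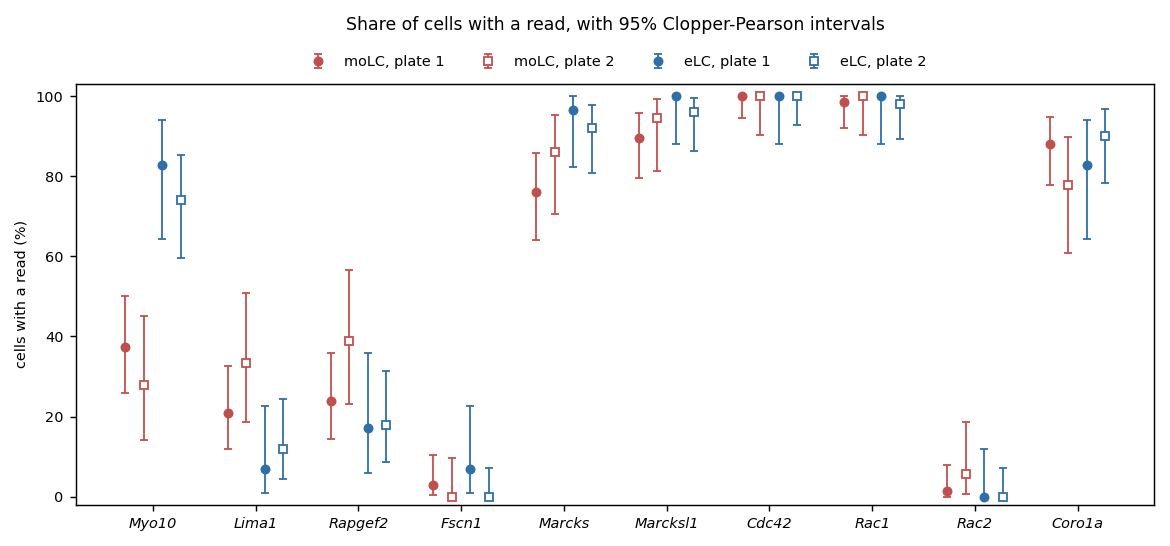
Share of cells with a read (points, percent) of each gene with exact Clopper-Pearson 95% intervals, by origin (color) and plate (filled, plate 1, and open, plate 2). The *Myo10* intervals of moLCs and eLCs lay apart on both plates (37.3% and 82.8%, 27.8% and 74%). Those of every other gene, *Lima1* and *Rapgef2* among them, overlapped on both plates. The intervals count cells of 1 sample per origin and do not measure the spread between mice.

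*Lima1* (chr15:99778470-99875456, minus strand) was read in 26 moLCs (25.2%, 17.2 to 34.8) and in 8 of 79 eLCs (10.1%, 4.47 to 19). These intervals overlapped. The shares were 20.9% and 6.90% on plate 1 and 33.3% and 12% on plate 2, and the gap passed 10 percentage points on each. The median cell had no read in either origin, and the highest cells had 356 CPM among moLCs and 174 CPM among eLCs. Reads summed to 28.3 CPM (27.7 to 28.9) over moLCs and to 6.12 CPM (5.80 to 6.46) over eLCs, for a log2 ratio of 2.21 (2.64 on plate 1 and 2.27 on plate 2). On plate 1, 1 eLC held 300 of the 332 *Lima1* reads of its group, and the ratio was 5.96 without it. On plate 2 it was 2.96 without the eLC with the most reads. With 25.2% of moLCs read, *Lima1* lay just inside the 25% limit, and it fell outside when the 3 cells left out were added or any 1 of those 26 was taken away. Of the moLCs with a *Lima1* read, 5 of 26 also had a keratinocyte marker read, against 20 of 77 of those without, and the log2 ratio in cells free of such reads was 2.08.

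*Rapgef2* (chr3:79062516-79286517, minus strand) was read in 30 moLCs (29.1%, 20.6 to 38.9) and in 14 of 79 eLCs (17.7%, 10.04 to 27.9), and these intervals overlapped. The gap in shares was 6.64 percentage points on plate 1, 20.9 on plate 2 and, after thinning, 6.64 in all cells. The cells with a read also stood further apart in level, with medians of 24.9 CPM among moLCs and 6.61 CPM among eLCs and highest cells of 216 and 68.6 CPM. Reads summed to 12.5 CPM (12.1 to 12.9) over moLCs and to 1.99 CPM (1.80 to 2.18) over eLCs, for a log2 ratio of 2.66, with 2.003 on plate 1 and 3.38 on plate 2. All reads in eLCs numbered 433, of which 3 cells held more than 50%, and in cells free of keratinocyte marker reads the log2 ratio was 2.25. The plate 1 ratio was 3.21 without the eLC with the most reads.

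The first 250 bases upstream of the annotated starts are shown for these 3 genes and for *Coro1a*, whose level ran against that of *Myo10* across cells (below). They were taken from RefSeq on GRCm38.p6 and are written 5′ to 3′ on the strand of the gene, with GC boxes (GGGCGG on either strand) in capitals. Of the 10 genes, 7 had a start in that table, with 10 starts in all, and for *Myo10*, *Rapgef2* and *Coro1a* the first of 2 starts is shown.

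Myo10, chr15:25622300-25622549, plus strand: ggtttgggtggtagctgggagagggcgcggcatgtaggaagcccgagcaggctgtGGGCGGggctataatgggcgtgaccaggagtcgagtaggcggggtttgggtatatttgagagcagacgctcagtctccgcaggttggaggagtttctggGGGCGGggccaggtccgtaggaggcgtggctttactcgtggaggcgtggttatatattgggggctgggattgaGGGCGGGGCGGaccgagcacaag

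Lima1, chr15:99820150-99820399, minus strand: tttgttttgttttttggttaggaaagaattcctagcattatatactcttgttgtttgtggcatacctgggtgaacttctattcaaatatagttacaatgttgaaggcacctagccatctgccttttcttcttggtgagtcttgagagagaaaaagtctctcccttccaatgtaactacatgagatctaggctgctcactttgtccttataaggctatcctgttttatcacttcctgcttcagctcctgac

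Rapgef2, chr3:79145876-79146125, minus strand: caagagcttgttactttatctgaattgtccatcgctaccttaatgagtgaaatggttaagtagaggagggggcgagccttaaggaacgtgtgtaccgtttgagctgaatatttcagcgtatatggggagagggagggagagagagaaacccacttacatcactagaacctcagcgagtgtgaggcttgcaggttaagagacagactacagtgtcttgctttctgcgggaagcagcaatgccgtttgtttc

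Coro1a, chr7:126704817-126705066, minus strand: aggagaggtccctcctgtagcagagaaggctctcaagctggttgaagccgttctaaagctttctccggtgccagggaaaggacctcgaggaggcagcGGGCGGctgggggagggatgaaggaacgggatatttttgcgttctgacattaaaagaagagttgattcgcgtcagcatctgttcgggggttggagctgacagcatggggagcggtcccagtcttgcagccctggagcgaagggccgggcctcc

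The *Myo10* window held 4 GC boxes, the last 2 of which overlap, 17 CpG dinucleotides and 62.8% G or C. The windows of the other 3 genes lie inside the annotated gene, at an internal start. The bases just after the *Lima1* start matched no annotated transcript of that gene, while those after the other starts shown did. The *Lima1* window held no GC box, no CpG and 39.2% G or C. The *Rapgef2* window had no GC box and 8 CpG, and the *Coro1a* window had 1 GC box and 13 CpG. Over 32851 promoter windows of the same length, 32.7% held a GC box, the median CpG count was 6 and the median G or C content 52.4%. The cores of the PU.1 site (GAGGAA, 23.3% of all windows) and of the RUNX site (TGTGGT, 14%) were absent from these 4 windows on both strands. No binding or methylation was measured in these cells, and which start was used was not determined.

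The membrane linkers were near equal in level between origins. *Marcks* (chr10:37133375-37138920) stood at 71.2 CPM over moLCs and 71.7 CPM over eLCs, for a log2 ratio of −0.01 (−0.04 to 0.02). It was nonetheless read in fewer moLCs, 82 (79.6%), against 74 of 79 eLCs (93.7%). The gap was 20.4 percentage points on plate 1 and 5.89 on plate 2, so *Marcks* did not meet the limit of 10 points on both. The median cell had 47.1 CPM among moLCs and 55.6 CPM among eLCs, and the highest *Marcks* cell of all, with 634 CPM, was the moLC of lowest LC marker level, without which the log2 ratio was −0.09. *Marcksl1* (chr4:129513581-129515985) had reads in 91.3% of moLCs and in 97.5% of eLCs, and its sums of 405 and 426 CPM gave a log2 ratio of −0.07. Its ratio was −0.36 on plate 1 and 0.07 on plate 2.

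*Cdc42* and *Rac1* were read in nearly every cell. *Cdc42* (chr4:137319696-137357720) had reads in every moLC and all 79 eLCs, from 126 to 2388 CPM (median 1090) in moLCs and from 252 to 2776 CPM (median 1204) in eLCs. Its summed levels of 1149 and 1230 CPM gave a log2 ratio of −0.10, with −0.11 and −0.05 within the plates. *Rac1* (chr5:143503634-143528036) was read in all moLCs but 1 and all eLCs but 1, with median cells at 479 and 584 CPM and a log2 ratio of −0.14, which was −0.43 on plate 1 and 0.20 on plate 2. *Rac1* shares 2309 exon bases with *Daglb* on the other strand. The strand setting of the counting is not given, and the 7898 reads assigned to *Daglb* compare with 158501 *Rac1* reads in moLCs and 126315 in eLCs.

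*Rac2*, the Rac of blood cells, was read in 3 moLCs, at 93.4, 213 and 543 CPM, and in 0 of 79 eLCs, which allows a share of up to 3.80% (3 cells of 79) and has an exact 95% upper limit of 4.56%. The summed moLC level of 6.77 CPM came from those 3 cells alone, the highest of which held 59% of the reads. *Fscn1* was read in 2 moLCs and 2 eLCs of plate 1 and in no cell of plate 2. The 2 moLCs held 1980 reads and 2 reads, and the 2 eLCs 42 and 2. The cell with 1980 *Fscn1* reads (964 CPM) was again the moLC of lowest LC marker level, and without it the log2 ratio went from 5.03 to −4.91. Fascin is known from mature, migrating dendritic cells, as is the chemokine receptor *Ccr7*, and that same cell had the second highest *Ccr7* level of the 182 cells, 9601 CPM. Of 71 cells with a *Ccr7* read, 2 had a *Fscn1* read, as had 2 cells without one.

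*Ccr7* itself was read in 40 moLCs (38.8%) and 31 of 79 eLCs (39.2%), summing to 862 and 444 CPM, with a log2 ratio of 1.49 on plate 1 and −0.48 on plate 2. A single moLC of plate 2 held 49.6% of the *Ccr7* reads of its group, and without it the plate 2 ratio was −1.41. Across cells it ran with *Marcksl1* weakly, with a mean Spearman correlation of 0.11 over the 4 groups, 0.20 and 0.24 in moLCs and −0.04 and 0.04 in eLCs. With *Myo10* the mean was 0.13 (0.11 and −0.18 in moLCs, 0.25 and 0.34 in eLCs), and with *Coro1a* it was −0.18 (−0.16 and 0.11 in moLCs, −0.42 and −0.27 in eLCs).

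*Coro1a* (chr7:126699773-126707787) was read in 87 moLCs (84.5%, 76 to 90.9) and 69 of 79 eLCs (87.3%, 78 to 93.8). It varied widely from cell to cell in both origins, from 0 through a median of 465 to 3208 CPM in moLCs and from 0 through a median of 493 to 3017 CPM in eLCs. The summed levels of 650 and 713 CPM gave a log2 ratio of −0.13. The plates went opposite ways, with 0.24 on plate 1 and −0.65 on plate 2.

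The wider actin machinery was examined through 9 lists of 148 genes, which hold the 10 genes and 138 others. Of the 148, 111 were read widely enough for the size rule, and beside *Myo10*, *Lima1* and *Rapgef2* 1 passed, where 2.02% of all genes tested did. This was *Tmsb10*, thymosin beta 10, a binder of actin monomers, with 21.4 CPM summed over moLCs and 8.71 over eLCs (log2 ratio 1.30, with 1.19 and 1.41 within the plates). It was read in 91 moLCs (88.3%) and 49 eLCs (62%), and in the median cell at 11.9 and 2.29 CPM. How reads that map to several copies were counted is not given, which bears on *Tmsb10* and on other short genes with processed copies. No gene of the Arp2/3 complex (9 of 9 tested), of the WASP and WAVE complexes (11 of 15) or of severing, capping and coronins (12 of 18) passed in either direction. The median log2 ratio over those of the 111 that are not among the 10 was −0.10.

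The genes of these lists with the most reads per kilobase were abundant in both origins at ratios under 2-fold. *Tmsb4x* (thymosin beta 4) reached 4107 CPM over moLCs and 3834 over eLCs, *Actb* (beta actin) 2070 and 2392 CPM, and *Lcp1* (L-plastin, a filament bundler of leukocytes) 2440 and 2411 CPM. Among regulators of filament turnover, *Gsn* (gelsolin, a severing protein) had 1139 and 1222 CPM and *Cfl1* (cofilin) 979 and 1009 CPM. The Arp2/3 subunits *Arpc3* and *Arpc5* had 749 and 973 CPM, and 617 and 716 CPM. The myosin light chains *Myl12a* (868 and 1194 CPM) and *Myl12b* (504.5 and 742 CPM) had log2 ratios of −0.46 and −0.56. *Vasp*, which extends filaments at filopodial tips, *Msn* (moesin), *Rap1b*, *Rap1a*, *Arhgdib*, *Brk1* and *Abi1* had log2 ratios between −0.35 and 0.15. Of the filopodia and myosin lists, with 9 and 14 genes tested, *Myo10* alone was past the size rule, as were 2.02% of all genes tested. With TMM factors no gene of these 2 lists passed, where 2.04% of all genes tested did. *Myo10* was picked with such values known, so nothing is read from these counts. *Enah* and *Pls1* of the filopodia list had no read in any cell kept.

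**Figure D3:**
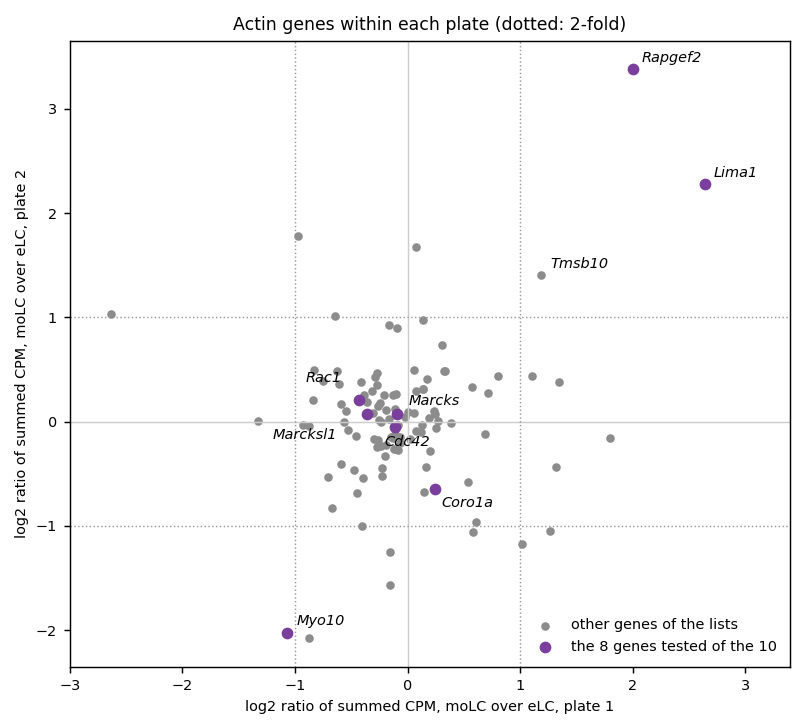
Log2 ratio of summed CPM, moLCs over eLCs, on plate 1 (x axis) and plate 2 (y axis) for the 111 genes of the actin lists that were read widely enough, with dotted lines at 2-fold. *Lima1*, *Rapgef2* and *Tmsb10* lay past 2-fold at the upper right, *Myo10* lay past it at the lower left, and *Coro1a* was above 0 on plate 1 (0.24) and below 0 on plate 2 (−0.65).

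Whether the genes varied together from cell to cell was described by the Spearman correlation of CPM within each of the 4 groups, averaged with equal weight. The cells of a group share a plate, a library preparation and a range of depth, and they are not independent replicates, so no p is given. Over the 28 pairs of the 8 widely read genes the median correlation was 0.05, and 21 pairs lay within 0.1 of 0. The highest was *Cdc42* with *Rac1*, at 0.28 (0.22 and 0.15 in moLCs of plates 1 and 2, 0.38 and 0.36 in eLCs). *Marcks* followed with *Marcksl1* (0.21, from 0.05 to 0.42) and with *Lima1* (0.21, from 0.15 to 0.28). In all 4 groups, 5 pairs were positive and 2 were negative. *Lima1* and *Rapgef2*, both higher in moLCs, did not run together (−0.05).

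**Figure D4:**
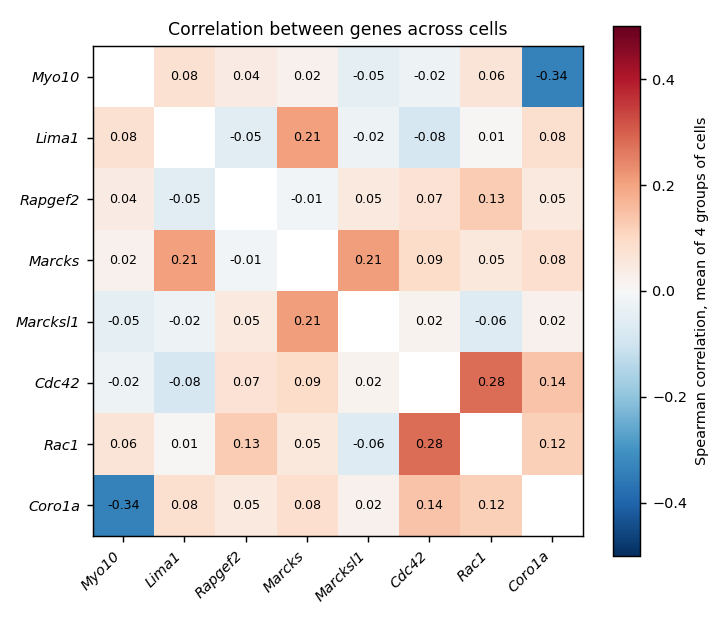
Spearman correlation between the 8 widely read genes across cells, mean of the 4 groups of origin and plate (color and printed value). Most cells of the matrix were near 0, *Cdc42* with *Rac1* was the highest at 0.28 and *Myo10* with *Coro1a* the lowest at −0.34.

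The pair that stood out was *Myo10* with *Coro1a*, at −0.34. The coefficient was −0.23 and −0.22 in moLCs of plates 1 and 2, and −0.49 and −0.42 in eLCs. Among 6518 genes compared with *Myo10* in this way, *Coro1a* had the lowest value. For *Coro1a* in turn, *Myo10* ranked eighth from the lowest. All 10 eLCs without a *Coro1a* read had *Myo10* reads, at 2.21 to 961 CPM with a median of 256 CPM, where 77.2% of all eLCs had such reads. The moLCs without a *Coro1a* read were split, with *Myo10* reads in 4 cells and none in 4 on plate 1, and reads in 3 and none in 5 on plate 2. Of all moLCs, 37.3% on plate 1 and 27.8% on plate 2 had *Myo10* reads. Both genes were nonetheless read together in 21 and 7 moLCs and in 19 and 32 eLCs of the 2 plates, so they did not mark separate cells. Among cells with a *Coro1a* read, the correlation was −0.24 and −0.25 in moLCs and −0.52 and −0.23 in eLCs. After thinning to equal depth the mean was −0.33. The correlation of *Myo10* with total reads was between −0.33 and 0.12 in the 4 groups, and that of *Coro1a* with the number of genes read was 0.07 and 0.62 in moLCs and 0.53 and 0.02 in eLCs.

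**Figure D5:**
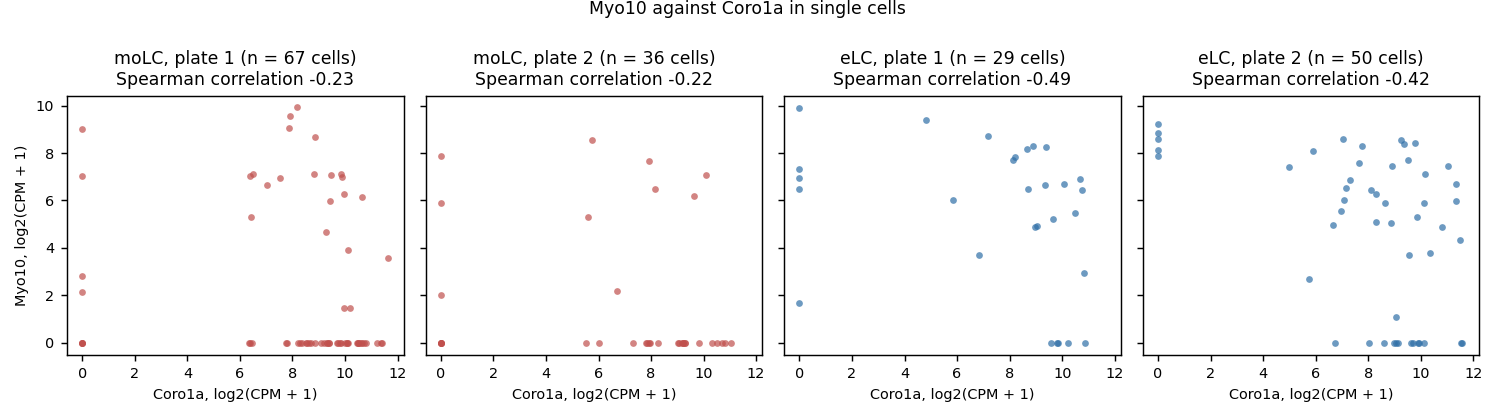
*Myo10* against *Coro1a* in single cells, both as log2(CPM + 1), in the 4 groups of origin and plate with the number of cells and the Spearman correlation. Cells with the highest *Coro1a* levels were mostly low or at 0 for *Myo10*, with correlations between −0.49 and −0.22. Every eLC at 0 for *Coro1a* had *Myo10* reads, as had 77.2% of all eLCs. The moLCs at 0 for *Coro1a* were split (4 with and 4 without on plate 1, 3 and 5 on plate 2). *Myo10* reads were present in 37.3% and 27.8% of all moLCs of those plates.

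The genes whose pattern across cells was most like that of *Myo10* were *Scin* (0.35), *Pgf* (0.33), *Smox* (0.32), *Mapk1ip1l* (0.30) and *Arap2* (0.30). *Scin* encodes scinderin, a filament-severing protein related to gelsolin, *Pgf* a growth factor of the VEGF family, *Smox* spermine oxidase and *Arap2* a GTPase-activating protein. *Scin*, *Pgf* and *Smox* were positive with *Myo10* in 3 groups (0.38 to 0.63) and slightly negative in the moLCs of plate 2 (−0.10, −0.10 and −0.15), where 10 cells had a *Myo10* read. *Mapk1ip1l* and *Arap2* were positive in all 4. None of these 5 passed the size rule. *Scin* was read in fewer moLCs (72.8%) than eLCs (93.7%), with 70.1% and 89.7% on plate 1 and 77.8% and 96% on plate 2. It thus met the limit of 10 percentage points on shares, as did 9.89% of all genes tested.

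*Coro1a* had closer companions. *Gnai2*, a G protein subunit that relays chemokine receptor signals, reached 0.52 (0.41 to 0.66), *Gsn* 0.52 (0.39 to 0.68) and *Scimp*, an adaptor of antigen-presenting cells, 0.50 (0.41 to 0.58). *Cdc42* ran most closely with *Lsp1* (leukocyte-specific protein 1, an actin binder) at 0.42, *Arpc5* at 0.36 and *Cfl1* at 0.32, each positive in all 4 groups. *Lsp1* was also nearest to *Marcks* (0.37), followed by *Tagln2* (0.31) and *Htra2* (0.29). *Marcksl1* was nearest to *Fgr* (0.39), *Dab2ip* (0.37) and *Litaf* (0.36). *Rac1* was nearest to *Itfg1* (0.29), *Cdc42* (0.28) and *Pgk1-rs7* (0.27), *Lima1* to *Zmynd15* (0.33), *Rara* (0.31) and *Basp1* (0.28), and *Rapgef2* to *Tet3* (0.32), *Gsap* (0.31) and *Gm6123* (0.29). *Pgk1-rs7* and *Gm6123* are annotated as processed pseudogenes, whose reads may belong to their parent genes.

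A cell had reads of 2 to 8 of the 10 genes among moLCs and of 4 to 8 among eLCs, with a median of 6 in both.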

How the data were processed

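Epidermal LCs of BMC were index sorted as single CD45+ Lin− CD11c+ CD11b+ CD24+ MHCII+ CD326+ cells, and cDNA was made with a Smart-Seq kit and sequenced paired-end with 75-bp reads. Alignment by the authors was with STAR against mm10, and the deposited values are counts of reads per gene and cell, not normalized. The counting tool, its annotation and its strand setting are not given in the sources used here. In 8 of 185 deposited columns, 9 values were not whole, and those columns were handled with the unit of expected counts and rounded. Without molecular identifiers, PCR copies are counted too, and the Poisson, Clopper-Pearson and binomial intervals (95%) cover counting error only. No 2 columns were identical, 0 columns belonged to no sample, and no doublet caller was run on these singly sorted cells.

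Cells with over 5% of reads on the 37 mitochondrial genes were left out. For each origin, CPM is the gene's reads in all its cells over all reads of those cells. In ratios, 0 reads in an origin were replaced by 3, over the group. CPM per kb used merged exons of GENCODE genes on GRCm38, the assembly of mm10. With 1 sample per origin no test was made. The rank-sum test on single cells in the methods of the study treats cells as replicates and was not used. Cells were thinned to the 10th percentile of totals, which left out 19 cells. The genes, the actin lists and the marker lists were chosen with earlier results of these data known. Named genes were the 10 genes, of each list those past the size rule and the 2 highest in CPM per kb, the 5 genes most like *Myo10* and the 3 most like each other gene, and *Ccr7*. The limit of 10 percentage points on shares, the values without keratinocyte reads or without the cell of lowest LC markers, leaving out each cell within a plate, and the counts of cells by *Myo10* and *Coro1a* read were added after the data were seen. The tools were scipy 1.17.1, pandas 2.3.3 and numpy 2.4.6 under Python 3.11.15, matplotlib 3.10.9 for figures and, for TMM factors, edgeR 4.0.16 under R 4.3.3. The size rule was tested on simulated data, with large changes planted in genes read in most cells. Its behaviour near its own limits was not probed.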

Additional observations from a re-analysis of the deposited data

Results flagged for a closer look

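For 4 genes the ratio of moLCs over eLCs had opposite signs on the 2 plates, a difference that was not tested. On the log2 scale *Marcks* stood at −0.0906 on plate 1 and 0.0726 on plate 2, *Marcksl1* at −0.36 and 0.0737, *Rac1* at −0.43 and 0.20, and *Coro1a* at 0.24 and −0.65. All 8 values were under 2-fold, and with 1 sample per origin and plate a plate cannot be told apart from the mice sorted onto it.

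The 3 moLCs of plate 2 left out for their mitochondrial reads, which enter no comparison, held reads of some of these genes. Summed over those cells, *Marcks* had 719 CPM, *Rac1* 714 CPM, *Cdc42* 205 CPM, *Coro1a* 122 CPM and *Rapgef2* 17.4 CPM. *Myo10*, *Lima1*, *Marcksl1* and *Rac2* had no read there. *Marcks* and *Rac1* were thus higher, and *Cdc42*, *Coro1a* and *Marcksl1* lower, than summed over the cells kept. These sums rest on few cells, as *Marcks*, *Rac1*, *Cdc42* and *Coro1a* were each read in 2 of the 3 and *Rapgef2* in 1.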

How the results depend on the processing

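*Myo10* was higher in eLCs, and *Lima1* and *Rapgef2* in moLCs, under all 12 alternatives run for each. The log2 ratio of *Myo10* was −1.07 on plate 1 alone, −2.02 on plate 2 alone, −1.10 with TMM factors, −1.14 with totals that leave out the 50 most counted genes and −1.08 without cells with a keratinocyte marker read. Leaving out 1 cell at a time gave −1.49 to −1.10 in all cells, −1.41 to −0.84 on plate 1 and −2.48 to −1.88 on plate 2. Of the 10 genes, 2 passed the size rule with TMM factors (*Lima1* and *Rapgef2*), where 2.04% of all genes tested did. Without the mitochondrial filter 2 passed (*Myo10* and *Rapgef2*), beside 2% of all genes tested. Where a read was asked in 50% of cells, 1 passed (*Myo10*), beside 23 of 3649 genes (0.63%). With no filter on the share of cells 4 passed, with *Rac2* (read in 3 cells) added, beside 1546 of 17821 genes (8.68%). At 1.5-fold the same 3 passed as at 2-fold, beside 501 of 6522 genes (7.68%). In the settings reported above, 132 of 6522 genes passed (2.02%). TMM factors, which raised the ratios over all cells by 0.10, turned the split from 53 higher in moLCs and 79 in eLCs to 71 and 62. The ratios of *Marcks*, *Marcksl1*, *Cdc42*, *Rac1* and *Coro1a* were all near 0 and changed sign under at least 1 alternative each. The ratio of *Fscn1* was −4.91 without the moLC of 1980 reads and 9.46 without the eLC of 42 reads, and the cause was not tested beyond that. The correlation of *Myo10* with *Coro1a* was −0.26 by Pearson on log2(CPM + 1), −0.26 over pooled cells, −0.33 thinned and −0.32 without the filter. A chimera of this kind can hold both origins, but no paired analysis was possible because no label names the mouse of a cell. The numbers of cells in the labels only name the cells. With 1 sample per origin, the spread between mice is unknown.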
